A study of Mus musculus with 25 samples.

Results

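The S100 genes encode small EF-hand calcium-binding proteins, and the 10 described here (S100a1, S100a4, S100a6, S100a8, S100a9, S100a10, S100a11, S100a13, S100a16 and S100b) were chosen by gene symbol, several of them as known ligands of RAGE, the receptor for advanced glycation end products. All 10 were among the 35969 genes measured, and 9 of them passed the minimum level for testing. S100b did not, with a mean of 0.860 over the 25 mice. Messenger RNA of the left ventricle was sequenced from 25 male mice in 5 groups of 5. WT CNTL and GPx4+/- CNTL mice ate a control chow for 16 weeks, WT HFHS and GPx4+/- HFHS mice ate a high fat high sucrose diet for 16 weeks, and WT HFHS + Carnosine mice ate the HFHS diet and had 80 mM carnosine in the drinking water from week 7. GPx4+/- mice have 1 intact allele of Gpx4, the gene for glutathione peroxidase 4, and were littermates of the WT mice, on a line backcrossed to C57BL6/J, and all were 8 to 10 weeks old when the diets began. Carnosine in GPx4+/- mice was not analysed here.

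S100 proteins pair up into dimers, change shape when they bind calcium and then hold on to partners such as annexins, ion channels and p53. Several are also released from cells and bind RAGE or Toll-like receptor 4, which makes them alarm signals in inflamed tissue. In the heart S100A1 is known as a regulator of calcium cycling in cardiomyocytes, S100A8 and S100A9 as products of neutrophils and monocytes, and S100A4 as a protein of fibroblasts and macrophages. The question put to these samples was how the diet, the loss of GPx4 and carnosine moved the mRNA of each member.

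Of the 10, 9 lie on chromosome 3 and S100b lies on chromosome 10 (GRCm38, GENCODE M21). S100a1, S100a13, S100a16, S100a4, S100a6, S100a8 and S100a9 stand in a row between 90511034 and 90695721, and S100a11 and S100a10 stand in a second cluster between 93520488 and 93564643. S100b spans 76253853 to 76261159 and ends 3.79 Mb before Gpx4. S100a1 is transcribed from the minus strand and S100a13 from the plus strand, and only 42 bases separate their annotated starts. That stretch is shown first because 1 short piece of DNA separates the most abundant member from one of the least variable. S100a16 has transcripts from an upstream and a downstream group of starts, and the 100 bases before each are shown because S100a16 was the member that changed with diet. The stretches before S100a8 and S100a9 are shown because these genes rose and fell together between mice. That of S100a8 is the 60 bases before its GENCODE start at 90668978. That of S100a9 was taken further upstream, not next to its start at 90695721, and holds a motif 130 bases before that start. All are from the RefSeq promoter table for GRCm38.p6, which holds 9 of the 10 members, and are written 5′ to 3′ on the strand given. Capitals mark GGGCGG (the Sp1 box) in the S100a16 stretches and TTNNGNAA (a C/EBP-like motif) in those of S100a8 and S100a9, each searched on both strands.
Between S100a1 and S100a13, chr3:90514393-90514434, plus strand: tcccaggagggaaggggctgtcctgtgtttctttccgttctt
S100a16, before the upstream start, chr3:90537154-90537253, plus strand: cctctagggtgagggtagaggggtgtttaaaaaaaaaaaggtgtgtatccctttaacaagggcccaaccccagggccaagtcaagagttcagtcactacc
S100a16, before the downstream start, chr3:90541046-90541145, plus strand: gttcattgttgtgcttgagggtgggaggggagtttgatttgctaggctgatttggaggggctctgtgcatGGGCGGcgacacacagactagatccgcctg
S100a8, chr3:90668918-90668977, plus strand: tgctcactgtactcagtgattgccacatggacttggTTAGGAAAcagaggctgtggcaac
S100a9, chr3:90695812-90695871, minus strand: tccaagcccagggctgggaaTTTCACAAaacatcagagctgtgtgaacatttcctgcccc
Among the 32851 promoters of the table, GGGCGG occurs within 250 bases before the start in 32.7% and TTNNGNAA in 36.9%, so neither is rare. S100a8 also has TATAAA, found in 12.4% of promoters, 30 bases before its RefSeq start. That start, at 90669071, lies downstream of the GENCODE start, so the TATAAA falls outside the printed stretch. All of these are matches of letters only.

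Values are TPM, a transcript abundance that is corrected for transcript length and so allows levels of different genes to be compared, summed per gene and scaled between libraries. TPM keeps no read depth, so no counting error can be given. S100a1 was by far the most abundant member, with a mean scaled TPM of 830.7 over the 25 mice, and it made up 65.2% to 83.9% of the summed S100 TPM of a mouse (median 77.5%). S100a11 followed at 66.7, S100a6 at 52.1, S100a10 at 43.7, S100a16 at 36.6, S100a13 at 26.3 and S100a4 at 8.85. S100a9 (2.37), S100a8 (1.28) and S100b (0.860) were low in these hearts. S100a1 stood above S100a11 in 25 of 25 mice and S100a16 stood above S100a13 in 25 of 25. Most other neighbours in this order kept their rank in 22 to 24 of the 25 mice. S100a8 and S100b could not be ranked, since S100a8 was the higher in 14 of 25. The spread between mice also set the members apart, from a coefficient of variation of 5.01% in S100a13 and 9.48% in S100a16 to 96.9% in S100a9 and 101% in S100a8.

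**Figure D1:**
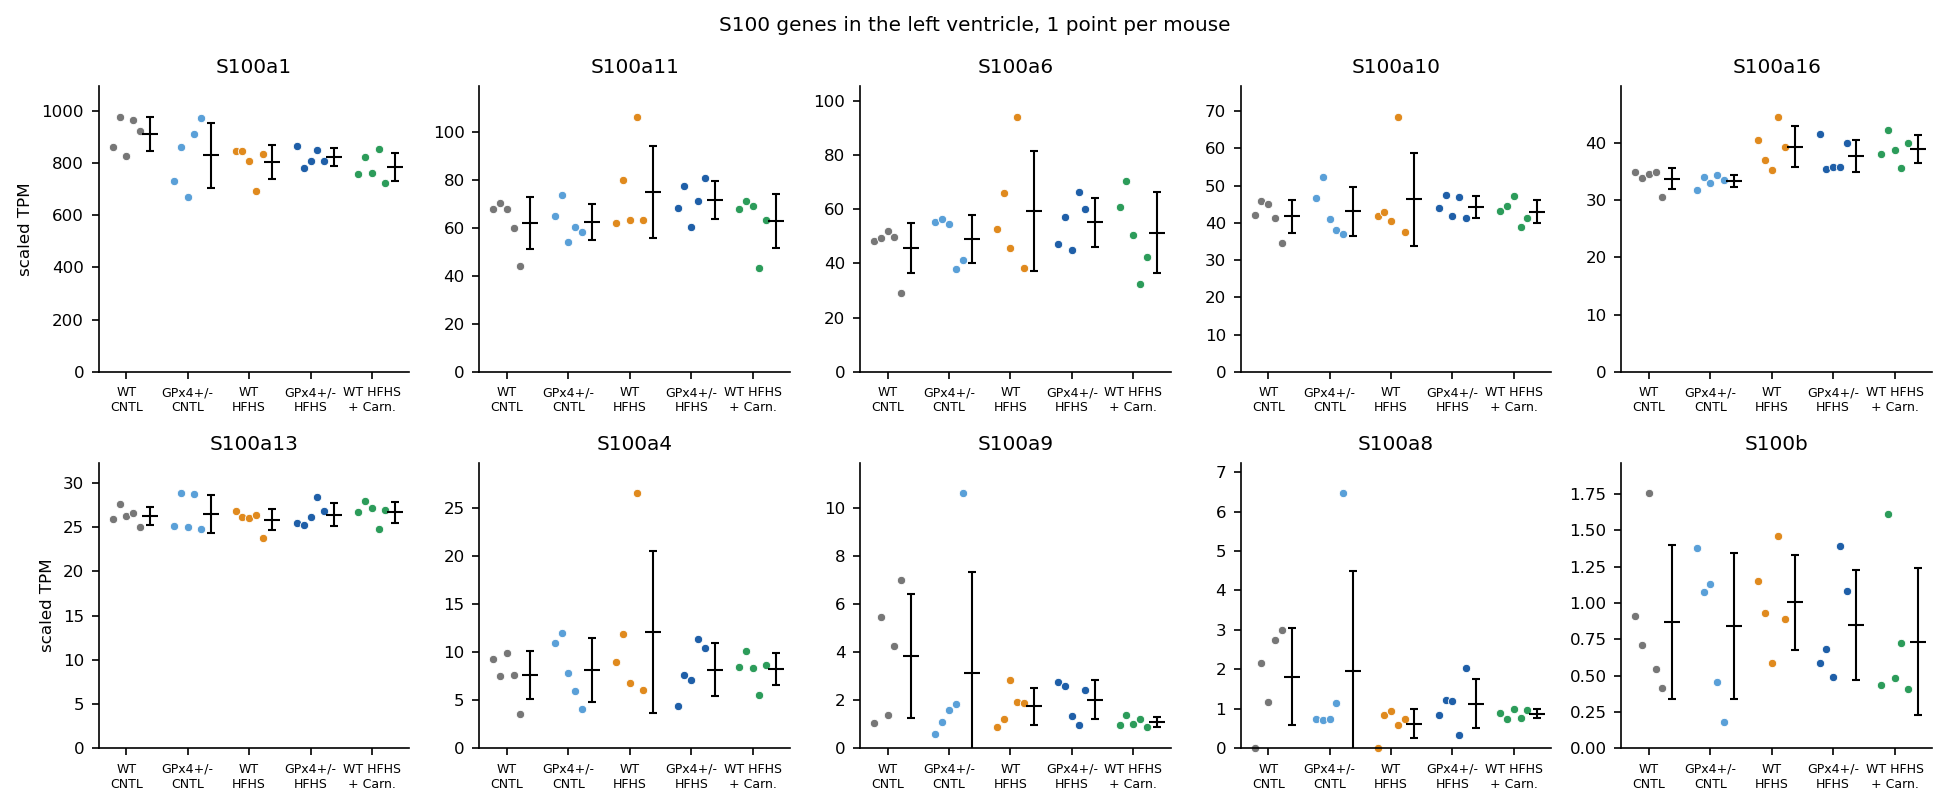
Scaled TPM (vertical axis, from 0) of the 10 S100 genes in each of the 5 groups, with 1 point per mouse and a black mark for the mean ± SD of 5 mice, cut at 0 where the SD exceeds the mean. Group means of S100a1 lie between 784.3 and 910.8, S100a16 is higher in the 3 HFHS groups than in the CNTL groups, and single mice stand out in S100a4, S100a10, S100a8 and S100a9.

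The labels and the tissue were checked before the groups were compared. Gpx4 was lower in each GPx4+/- library (250.3 to 382.4 scaled TPM) than in each WT library (590 to 777). Cardiomyocyte markers were abundant in each of the 25 libraries, with 7 genes summing to between 31970 and 41150. Markers of other tissue were high in some libraries, and the 5 with the highest sums were left out together in an alternative fit. Summed atrial markers reached 7435 in GPx4+/- CNTL replicate 1, 4633 in WT CNTL replicate 3 and 2727 in GPx4+/- HFHS replicate 4, against group medians of 49.4 to 257.7, and summed smooth muscle markers reached 527.8 in WT HFHS replicate 4. GPx4+/- CNTL replicate 2 had 1173 in summed hepatocyte markers and 1498 in atrial ones. Lower but also raised were the hepatocyte sums of GPx4+/- HFHS replicates 1 and 3 (98.7 and 60.6, at most 14.2 in the other libraries) and the atrial sum of WT HFHS + Carnosine replicate 2 (593.9), and these 3 libraries were kept. Bulk tissue cannot tell fewer cells of a type from less mRNA per cell.

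S100a16 was the member that rose with the HFHS diet. It encodes a widely expressed S100 protein that is known to promote adipocyte differentiation when overexpressed in preadipocyte cultures. In WT CNTL its scaled TPM was 34.9, 33.9, 34.5, 34.8 and 30.5 in the 5 mice, and in WT HFHS it was 40.4, 37.0, 35.3, 44.5 and 39.3. In GPx4+/- CNTL it was 31.8, 34.0, 33.0, 34.4 and 33.4, and in GPx4+/- HFHS 41.4, 35.5, 35.8, 35.7 and 40.0. In scaled TPM all 10 HFHS mice were above all 10 CNTL mice, although the gap was small, from 34.9 in the highest CNTL mouse to 35.3 in the lowest HFHS mouse. Such a lack of overlap was found in 0.484% of the 11983 genes tested. The mean was 38.5 on HFHS and 33.5 on CNTL over both genotypes, an increase of 14.9%. The log2 fold change on the scale log2(scaled TPM + 0.5) was 0.19 (standard error 0.043, 95% interval 0.11 to 0.28, adjusted p = 0.00809 from limma). A permutation test of the 10 against 10 mice gave p = 2e-05, the smallest that 100000 two-sided resamples can give.

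S100a16 was higher on HFHS in each genotype. In WT mice it went from 33.7 ± 1.84 (SD, n = 5) to 39.3 ± 3.53 (SD, n = 5), and in GPx4+/- mice from 33.3 ± 1.02 (SD, n = 5) to 37.7 ± 2.82 (SD, n = 5). The 2 groups did not overlap within either genotype, which held for 4.51% of genes in WT and 4.47% in GPx4+/-, and the two-sided exact permutation test gave p = 0.00794 in each, the smallest that 5 against 5 allow. Within a genotype the adjusted p from limma was 0.083 in WT and 0.127 in GPx4+/-, above the threshold of 0.05. The difference between the diet effects of the genotypes was -0.043 on the log2 scale (95% interval -0.22 to 0.14). The lack of overlap and the permutation p-values hold for scaled TPM, and in TPM as deposited the diets overlap in each genotype. With TPM as deposited, without scaling between libraries, the log2 fold change over both genotypes was 0.14 (adjusted p = 0.199), so the call rests on the scaling. It was then 0.22 in WT and 0.067 in GPx4+/- mice, against 0.22 and 0.17 after scaling, and the difference between them was -0.15 (adjusted p = 0.743 from limma). Without the 5 libraries with much other tissue it was 0.18 (adjusted p = 0.0383).

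S100a16 transcripts from the downstream starts carried most of the difference in level. Their summed scaled TPM was 22.6 ± 3.44 (SD, n = 10) on HFHS and 18.8 ± 2.07 (SD, n = 10) on CNTL, 20.4% higher (two-sided permutation p = 0.00754), whereas those from the upstream starts were at 15.4 ± 2.08 (SD, n = 10) and 14.6 ± 1.05 (SD, n = 10), a difference of 5.58% (permutation p = 0.278). The downstream starts follow the stretch printed above with the capital GGGCGG, which lies 30 bases before the first of them. The share of the downstream transcripts was 59.3% ± 5.78 (SD, n = 10) on HFHS and 56.1% ± 4.44 (SD, n = 10) on CNTL, and this shift of 3.17 percentage points did not exceed the spread between mice (permutation p = 0.190). Transcripts of both kinds share their last exons, so the split between them is an estimate.

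**Figure D2:**
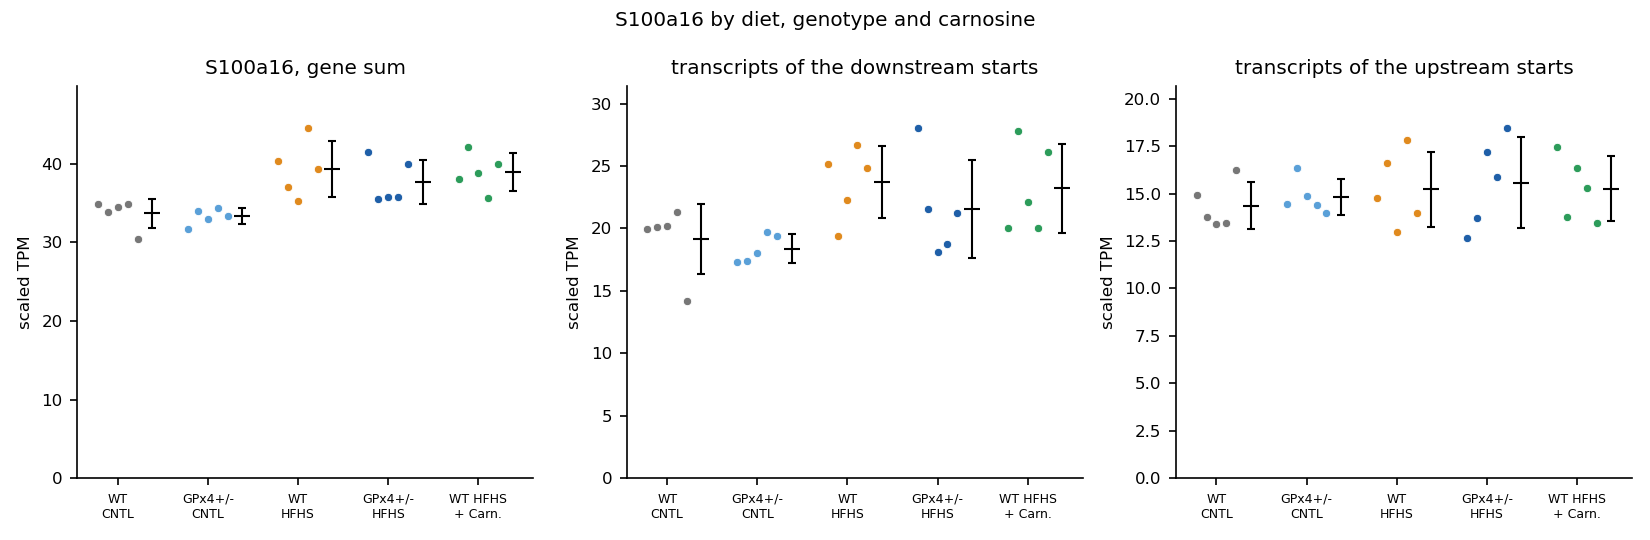
Scaled TPM (vertical axes, from 0) of S100a16 per mouse in the 5 groups, for the gene sum (left), the transcripts from the downstream starts (middle) and those from the upstream starts (right), with the mean ± SD of 5 mice in black. In the gene sum all 10 HFHS mice without carnosine lie above all 10 CNTL mice, and both the downstream and the upstream transcripts overlap between diets.

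Across the 9 tested members, S100a16 was the 1 gene called between diets over both genotypes, against 8.33% of all 11983 genes (561 higher and 437 lower). In WT mice alone 0 of the 9 members were called (1.19% of all genes), and in GPx4+/- mice alone 0 of 9 (3.34% of all genes). Unadjusted p-values under 0.05 were seen for S100a16 in all 3 of these comparisons and for S100a11 over both genotypes, where 24.5% of all genes had one (16.5% in WT and 18.4% in GPx4+/- mice). Neither the calls nor these counts set the members apart from other genes. Of the 9, 5 had a positive and 4 a negative log2 fold change over both genotypes, with a median of 0.084, beside a median of -0.0024 over all genes.

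S100a11, an annexin A1 partner, was second in level and showed a difference that did not pass the correction. Its scaled TPM in WT mice was 67.8, 70.2, 67.8, 59.8 and 44.1 on CNTL and 62.0, 80.0, 63.2, 106.3 and 63.3 on HFHS. In GPx4+/- mice it was 64.8, 73.8, 54.2, 60.4 and 58.3 on CNTL and 68.2, 77.3, 60.3, 71.0 and 80.9 on HFHS. The ranges overlapped in both genotypes, and the highest value, 106.3, came from WT HFHS replicate 4. Over both genotypes the mean was 73.2 on HFHS and 62.1 on CNTL, a log2 fold change of 0.23 (standard error 0.10, unadjusted p = 0.0363, adjusted p = 0.170 from limma). Of the 31-base words of its transcript, 48.9% also occur in transcripts of other genes, its pseudogenes, of which Gm12854 had the highest mean scaled TPM, 1.13, so reads could be shared between them at that level.

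S100a1, which in cardiomyocytes binds the ryanodine receptor and SERCA2a, had a lower mean on HFHS than on CNTL in WT mice, a difference that did not pass the correction. In WT CNTL its scaled TPM was 860.5, 977.9, 828.2, 963.5 and 924.0, and in WT HFHS it was 846.6, 846.6, 807.7, 693.1 and 834.5. The ranges overlapped slightly, with WT CNTL replicate 3 below 3 of the HFHS mice. The mean was 910.8 ± 64.8 (SD, n = 5) on CNTL and 805.7 ± 64.9 (SD, n = 5) on HFHS, a log2 fold change of -0.18 (adjusted p = 0.305 from limma), while the exact permutation test of this gene alone gave p = 0.0397. In GPx4+/- mice the means were 830.0 ± 125 (SD, n = 5) on CNTL and 822.7 ± 34.8 (SD, n = 5) on HFHS, a log2 fold change of -0.00011 (95% interval -0.18 to 0.18). The difference between the diet effects of the genotypes was 0.18 with a 95% interval of -0.075 to 0.43 (adjusted p = 0.752 from limma), so a difference between genotypes was not detected. With TPM as deposited the log2 fold change was -0.18 in WT and -0.11 in GPx4+/- mice, and the difference between them 0.068. Without WT HFHS replicate 4, the mouse with the lowest S100a1, the WT log2 fold change was -0.13 (adjusted p = 0.548).

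S100a4, S100a6 and S100a10 had higher means on HFHS than on CNTL in WT mice, and none passed the test. S100a4 binds non-muscle myosin, S100a6 (calcyclin) binds annexins, and S100a10 (p11) forms a tetramer with annexin A2 at the plasma membrane. S100a4 ranged from 3.59 to 9.93 in WT CNTL and from 6.10 to 26.5 in WT HFHS, S100a6 from 29.2 to 52.0 and from 38.2 to 94.2, and S100a10 from 34.7 to 45.8 and from 37.6 to 68.5. In all 3 genes the top of the WT HFHS range was replicate 4, and the ranges overlapped. In GPx4+/- mice the means on CNTL and HFHS were close for S100a4 (8.17 and 8.18) and S100a10 (43.0 and 44.3), and 49.1 and 55.2 for S100a6, with log2 fold changes of 0.029 (95% interval -0.73 to 0.78), 0.050 (-0.22 to 0.32) and 0.17 (-0.25 to 0.60). Their log2 fold changes over both genotypes were 0.26 (95% interval -0.27 to 0.80), 0.25 (-0.050 to 0.55) and 0.084 (-0.11 to 0.28), with adjusted p from limma of 0.572, 0.299 and 0.621. Without WT HFHS replicate 4 they were 0.10, 0.16 and 0.0094. Leaving out a CNTL mouse also lowered S100a4, to 0.15 without WT CNTL replicate 5 and 0.16 without GPx4+/- CNTL replicate 5, and S100a10 was at 0.052 without WT CNTL replicate 5. For S100a4, 49.2% of the 31-base words are shared with Gm42674, which overlaps it and was listed at 0 in 25 of 25 mice.

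These 3 genes and S100a11 rose and fell together between mice. Over the 25 mice Pearson's r was 0.860 between S100a4 and S100a6 (Spearman's rho 0.838, adjusted permutation p = 9e-05 and 0.00045 over the 45 pairs of members) and 0.856 between S100a6 and S100a11 (rho 0.769, adjusted permutation p = 9e-05 and 0.00045). The other 4 pairs of the 4 genes had r between 0.779 and 0.831. With group means removed r was 0.871 for S100a4 with S100a6 and 0.847 for S100a6 with S100a11, and without the 2 mice farthest from the median it was 0.739 and 0.728. The 4 genes also followed the log2 of the summed scaled TPM of 8 fibroblast markers, with r of 0.846 (rho 0.775) for S100a4, 0.860 (rho 0.827) for S100a6, 0.769 (rho 0.670) for S100a10 and 0.786 (rho 0.754) for S100a11. The permutation p-values, adjusted over 132 relations of members to marker sums, were between 0.00022 and 0.00066 for r and between 0.00066 and 0.00473 for rho, and r within groups was 0.760 to 0.847. Leaving out the 2 mice farthest from the median marker sum lowered r to 0.716, 0.758, 0.562 and 0.614.

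Fibroblast markers were not alone in this. With the sum of 10 macrophage markers r was 0.753 (rho 0.722) for S100a4, 0.816 (rho 0.745) for S100a6, 0.691 (rho 0.722) for S100a10 and 0.788 (rho 0.785) for S100a11, with adjusted permutation p from 0.00022 to 0.00132 for r and from 0.00066 to 0.00117 for rho. Within groups these r were 0.689 to 0.820, and without the 2 farthest mice 0.535 to 0.700. With 6 valve and cartilage-like markers r was 0.631 to 0.666 (rho 0.585 to 0.626, adjusted permutation p at most 0.005 and 0.017), and 0.525 to 0.577 without the 2 farthest mice. S100a4 and S100a6 also followed the Schwann cell sum (r = 0.626 and 0.522, rho 0.655 and 0.563, adjusted permutation p at most 0.0289 and 0.0226, and r = 0.475 and 0.393 without the 2 farthest mice). With the adipocyte sum, where 1 of 6 markers passed the minimum level, their r was 0.5802 and 0.5015 (rho 0.6085 and 0.4654). The adjusted permutation p was 0.00872 and 0.0383 for r, and 0.0128 and 0.0801 for rho. Without the 2 farthest mice these r were 0.5875 and 0.5094. Against the 7 cardiomyocyte markers r was negative, from -0.632 in S100a11 to -0.488 in S100a6 (rho -0.628 to -0.444, adjusted permutation p at most 0.0421 for r and from 0.00906 to 0.094 for rho), and -0.573 to -0.334 without the 2 farthest mice. The marker sums come from the same libraries and the lists were not compared with each other.

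Few cell type markers were called with the diet, while several lists leaned one way. All 8 fibroblast markers had a positive log2 fold change on HFHS over both genotypes (median 0.35, beside 49.1% positive among all genes), and 2 were called (8.33% of all genes), Lum at 0.55 (adjusted p = 0.0395 from limma) and Pdgfra at 0.29 (adjusted p = 0.0472). The fibroblast sum ranged from 289.6 to 564.3 in WT CNTL, 314.5 to 461.4 in GPx4+/- CNTL, 380.0 to 729.1 in WT HFHS, 363.4 to 543.8 in GPx4+/- HFHS and 334.9 to 517.9 in WT HFHS + Carnosine. The highest, 729.1, was WT HFHS replicate 4, the mouse highest in S100a4, S100a6, S100a10 and S100a11. All 5 smooth muscle markers were positive (median 0.61) and none was called, with sums of 66.1 to 134.7 in WT CNTL, 92.1 to 143.2 in GPx4+/- CNTL, 100.3 to 527.8 in WT HFHS and 73.7 to 249.6 in GPx4+/- HFHS. Of 9 tested macrophage markers 8 were positive (median 0.12) and none was called, with sums of 165.9 to 261.6, 210.5 to 293.5, 199.3 to 317.2 and 217.0 to 278.7 in the same order. Of the 7 cardiomyocyte markers 6 were negative (median -0.12), and Myh6 was called lower on HFHS (log2 fold change -0.17, adjusted p = 0.0314 from limma). The cardiomyocyte sums were 35950 to 40630 in WT CNTL, 35080 to 41150 in GPx4+/- CNTL, 31970 to 38310 in WT HFHS and 32110 to 36140 in GPx4+/- HFHS. In the other lists none was called. All 6 atrial markers were negative (median -0.90, and -0.37 in WT against -1.41 in GPx4+/- mice), as were all 5 tested hepatocyte markers (-0.36), and all 4 tested Schwann cell markers (0.27) and 5 of 6 endothelial markers (0.086) were positive.

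S100a16, the called member, had its largest r with the sums of 5 lists, none above 0.532 in size. With 6 endothelial markers r was 0.532 (rho 0.43, adjusted permutation p = 0.0288 and 0.106), 0.499 without the 2 farthest mice and 0.342 within groups. With 4 monocyte markers, of which 1 passed the minimum level, r was 0.524 (rho 0.477, adjusted permutation p = 0.0289 and 0.0681), 0.354 without the 2 farthest mice and 0.289 within groups. Its r with the cardiomyocyte sum was -0.516 (rho -0.524, adjusted permutation p = 0.0324 and 0.0386), -0.420 without the 2 farthest mice and -0.109 within groups. With the smooth muscle sum r was 0.510 (rho 0.373, adjusted permutation p = 0.0324 and 0.18), 0.236 without the 2 farthest mice and 0.460 within groups. With the fibroblast sum r was 0.476 (rho 0.384, adjusted permutation p = 0.0519 and 0.168), 0.161 without the 2 farthest mice and 0.371 within groups. Only the cardiomyocyte relation passed 0.05 by both measures, and little of it was left within groups. S100a1 had r of 0.569 with the cardiomyocyte sum (rho 0.593, adjusted permutation p = 0.0162 and 0.0149, r = 0.488 within groups, and r = 0.476 without the 2 farthest mice). Its r was negative and about as large with the fibroblast sum (-0.556, rho -0.573, adjusted permutation p = 0.0175 and 0.0197, and -0.402 without the 2 farthest mice) and the Schwann cell sum (-0.547, rho -0.451, adjusted permutation p = 0.0208 and 0.0897, and -0.419 without the 2 farthest mice). The part of these cell type markers in the S100 differences was not tested.

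**Figure D3:**
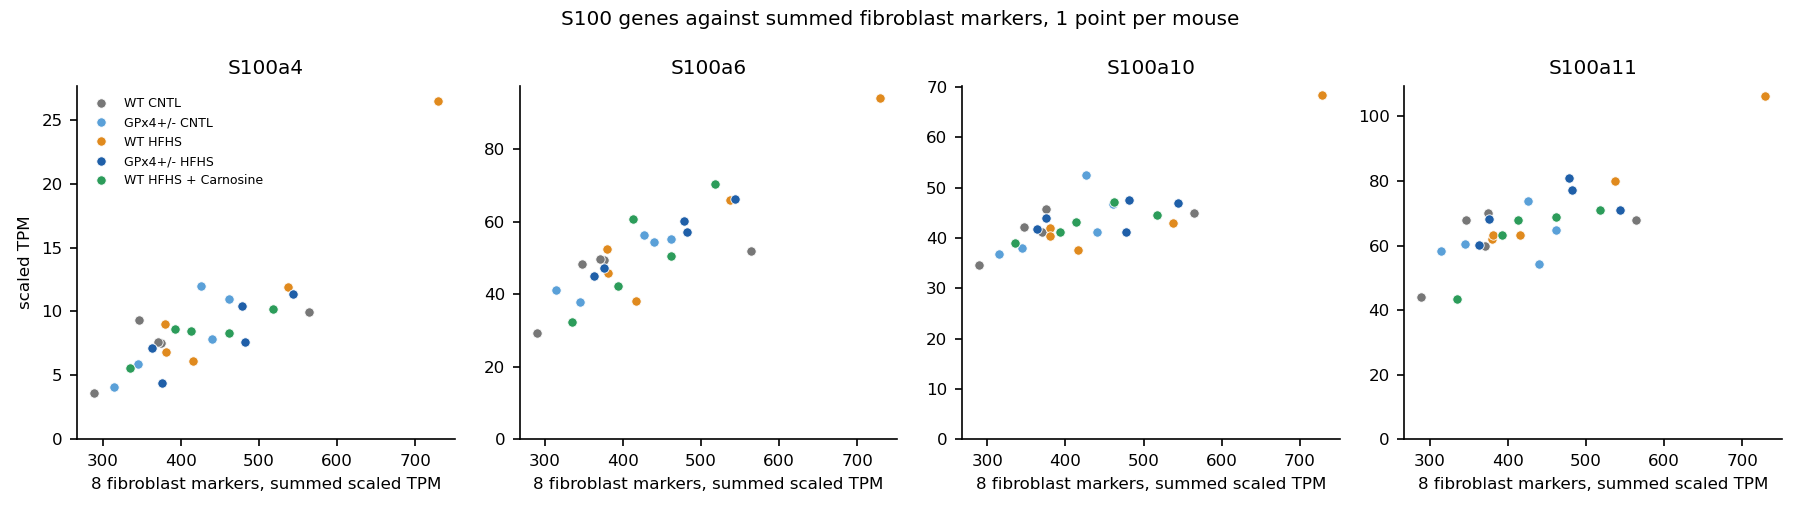
Scaled TPM (vertical axes, from 0) of S100a4, S100a6, S100a10 and S100a11 against the summed scaled TPM of 8 fibroblast markers (horizontal axes), with 1 point per mouse coloured by group. In each panel the points climb from lower left to upper right, and the point farthest right, at 729.1, is WT HFHS replicate 4.

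S100a8 and S100a9, the subunits of calprotectin and ligands of RAGE and Toll-like receptor 4, were low and varied more than 5-fold between mice of the GPx4+/- CNTL group. S100a8 was 0, 2.15, 1.17, 2.73 and 3.01 in WT CNTL (listed at 0 in 1 mouse), 0.731, 0.724, 0.745, 1.15 and 6.47 in GPx4+/- CNTL, and 0, 0.856, 0.936, 0.594 and 0.741 in WT HFHS. In GPx4+/- HFHS it was 0.838, 1.21, 1.21, 0.348 and 2.04. S100a9 was 1.07, 5.46, 1.41, 4.27 and 6.99 in WT CNTL and 0.869, 1.23, 2.85, 1.91 and 1.87 in WT HFHS. The higher values were thus found in CNTL mice, and 3 WT CNTL mice and GPx4+/- CNTL replicate 5 lay above the HFHS mice in both genes. S100a9 in GPx4+/- mice was 0.579, 1.10, 1.61, 1.83 and 10.6 on CNTL and 2.76, 2.58, 1.36, 0.963 and 2.44 on HFHS. Between diets over both genotypes the log2 fold change was -0.56 (95% interval -1.33 to 0.21, adjusted p = 0.376 from limma) for S100a8 and -0.40 (-1.17 to 0.36, adjusted p = 0.541) for S100a9, differences within the spread between mice. Without GPx4+/- CNTL replicate 5 they were -0.32 and -0.13, and without the 5 libraries with much other tissue S100a9 was at -0.76 (adjusted p = 0.265).

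Mice with more S100a8 had more S100a9. Over the 25 mice r was 0.808 (rho 0.643, adjusted permutation p = 9e-05 and 0.00335 over the 45 pairs), r was 0.853 with group means removed and 0.718 without the 2 farthest mice. In the carnosine group, where S100a8 spanned just 0.752 to 0.994, r was -0.906 over 5 mice. Both genes hold TTNNGNAA before their starts, as printed above, and so do 36.9% of all promoters within 250 bases. Neutrophil markers were close to 0: 1 of 12, Lcn2, passed the minimum level, and 8, among them Ly6g, Mpo, Elane, Camp and Ngp, stayed under 0.5 scaled TPM in each library. Their sum, mostly Lcn2, ranged from 4.45 to 13.2 over the 25 mice and had r of 0.032 with S100a8 (rho 0.0058) and 0.043 with S100a9 (rho 0.066). The permutation p-values adjusted over the 132 relations were 0.922 and 0.893 for r and 0.979 and 0.834 for rho. Of the 11 other neutrophil genes, 5 were highest in the same mouse as S100a8 and S100a9, GPx4+/- CNTL replicate 5: Retnlg at 1.66, Csf3r at 1.65, Mmp9 at 0.777, Cxcr2 at 0.297 and Mmp8 at 0.106. The rest, Ly6g, Mpo, Elane, Camp, Ltf and Ngp, were listed at 0 in that mouse, where Lcn2 was at 3.26. The sum without Lcn2, formed after the values were seen, ranged from 0.963 to 4.49. Its r with S100a8 was 0.795 (rho 0.743, adjusted permutation p = 0.00022 and 0.00066), 0.809 within groups and 0.608 without the 2 farthest mice. With S100a9 r was 0.641 (rho 0.434, adjusted permutation p = 0.00654 and 0.101), and 0.261 without the 2 farthest mice, so this relation rests on those mice. Monocyte markers, with r of 0.011 for S100a8 (rho 0.03) and -0.233 for S100a9 (rho -0.196), showed no detectable relation to either gene (adjusted permutation p = 0.963 and 0.412 for r, and 0.936 and 0.515 for rho). Schwann cell markers ran against both, with r of -0.662 for S100a8 (rho -0.676, adjusted permutation p = 0.00206 and 0.00312) and -0.714 for S100a9 (rho -0.505, adjusted permutation p = 0.000587 and 0.0519), and -0.490 and -0.556 without the 2 farthest mice. Adipocyte markers, of which 1 of 6 passed the minimum level, had r of -0.482 and -0.511 (rho -0.563 and -0.499, adjusted permutation p = 0.046 and 0.0324 for r, and 0.0228 and 0.0547 for rho).

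**Figure D4:**
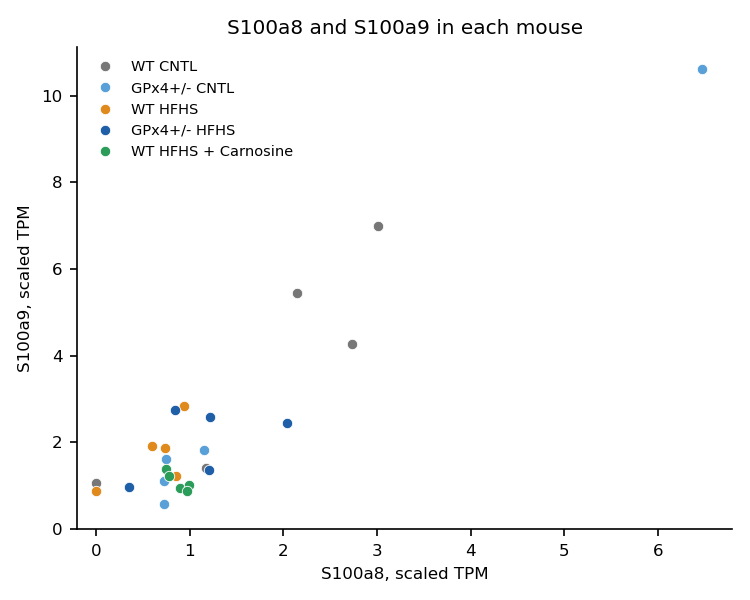
Scaled TPM of S100a9 (vertical axis) against S100a8 (horizontal axis), with 1 point per mouse coloured by group. Most mice lie below 3 in both genes, and GPx4+/- CNTL replicate 5 lies alone at 6.47 and 10.6.

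S100a13, which takes part in the release of fibroblast growth factor 1, and S100b, a protein of glia and Schwann cells, did not differ between diets beyond the spread. Mean S100a13 in WT mice was 26.3 ± 0.982 (SD, n = 5) on CNTL and 25.8 ± 1.18 (SD, n = 5) on HFHS. For GPx4+/- mice the means were 26.5 ± 2.12 (SD, n = 5) and 26.4 ± 1.30 (SD, n = 5). Its diet difference over both genotypes was -0.014 on the log2 scale, with a 95% interval of -0.092 to 0.064, the narrowest of the 9 members. S100b ranged from 0.181 to 1.76 over the 25 mice. It followed the summed scaled TPM of 7 Schwann cell markers, with r of 0.852 (rho 0.873, adjusted permutation p = 0.00022 and 0.00066), 0.915 within groups and 0.806 without the 2 farthest mice. Other sums rose with it too, with r of 0.728 for adipocyte (rho 0.545), 0.724 for fibroblast (rho 0.686) and 0.626 for valve and cartilage-like markers (rho 0.573), whose adjusted permutation p-values were at most 0.00591 for r and 0.0278 for rho, and 0.580 for atrial markers (rho 0.440, adjusted permutation p = 0.0116 and 0.095). Without the 2 farthest mice these r were 0.641, 0.697, 0.480 and 0.43. When genes under the minimum level were also fitted, the diet difference of S100b was 0.12 (adjusted p = 0.817 from limma).

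The GPx4+/- genotype did not move any tested S100 gene past the threshold. Over both diets 0 of 9 members were called (0.0584% of all genes, 7 genes), on CNTL 0 of 9 (0.0501% of all genes) and on HFHS 0 of 9 (0.0501%), with 466 genes at an unadjusted p under 0.05 over both diets and none of the 9 members among them. The log2 fold changes over both diets ran from -0.19 in S100a9 to 0.25 in S100a8, and neither end was stable. S100a9 turned to 0.11 without the 5 libraries with much other tissue and ran from -0.46 to -0.042 with each mouse left out in turn, the ends reached without GPx4+/- CNTL replicates 5 and 1. S100a8 was at 0.0043 without WT CNTL replicate 1, where it was listed at 0, at 0.0063 without GPx4+/- CNTL replicate 5 and at 0.57 with a pseudocount of 0.1. The 95% intervals were -0.058 to 0.097 for S100a13, -0.13 to 0.052 for S100a16 and -0.18 to 0.071 for S100a1. They were wider for S100a10 (-0.19 to 0.19), S100a11 (-0.22 to 0.20), S100a6 (-0.27 to 0.33) and S100a4 (-0.69 to 0.37), and widest for S100a9 (-0.96 to 0.57) and S100a8 (-0.53 to 1.02). The diet effect differed between genotypes in 0 of the 9 members (0% of all genes, with 856 at an unadjusted p under 0.05 from limma and none of the 9 among them).

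Carnosine did not move any tested S100 gene past the threshold in WT HFHS mice. Of the 9 members 0 were called (0% of all genes, with 504 at an unadjusted p under 0.05 from limma and none of the 9 among them), and their adjusted p-values were 0.947 or higher. Of the log2 fold changes 2 were positive and 7 negative, with a median of -0.072, beside -0.0011 over all genes. S100a16 stayed at the HFHS level, with 38.0, 42.2, 38.8, 35.6 and 40.0 in the 5 carnosine mice and a mean of 38.9 ± 2.42 (SD, n = 5), a log2 fold change of -0.012 (95% interval -0.16 to 0.14). S100a9 showed the lowest unadjusted p of the 9, with 0.952, 1.39, 1.01, 1.23 and 0.886 in the carnosine mice and a mean of 1.09 ± 0.210 (SD, n = 5) against 1.75 ± 0.756 (SD, n = 5) without carnosine. Its log2 fold change was -0.44 (standard error 0.21, unadjusted p = 0.0629, adjusted p = 0.947 from limma), the ranges overlapped, and it was -0.28 without WT HFHS replicate 3. S100a11 was at 62.9 ± 11.3 (SD, n = 5) with and 75.0 ± 19.0 (SD, n = 5) without carnosine, and S100a4 at 8.21 ± 1.66 (SD, n = 5) and 12.1 ± 8.38 (SD, n = 5), both within the spread between mice (log2 fold changes -0.24 and -0.35). Without WT HFHS replicate 4, the mouse with the highest S100a4 and S100a11, these 2 log2 fold changes were -0.11 for S100a11 and -0.0205 for S100a4. Without WT HFHS + Carnosine replicate 4, the lowest of its group in both genes, they were -0.11 and -0.22. S100a4 was at -0.53 without WT HFHS replicate 5. Several lists of cell type markers also leaned with carnosine, in both directions and with none called. Negative were 7 of 8 fibroblast markers (median -0.20), all 5 smooth muscle (-0.89), all 4 tested valve and cartilage-like (-1.01), 5 of 6 atrial (-0.35), all 5 tested erythroid (-0.26) and all 4 tested Schwann cell markers (-0.13), while macrophage markers were split, 5 positive and 4 negative (median 0.0023). Positive were 6 of 7 cardiomyocyte (median 0.017), 4 of 5 tested hepatocyte (0.048) and 4 of 6 endothelial markers (0.033). Their part in these differences was not tested.

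**Figure D5:**
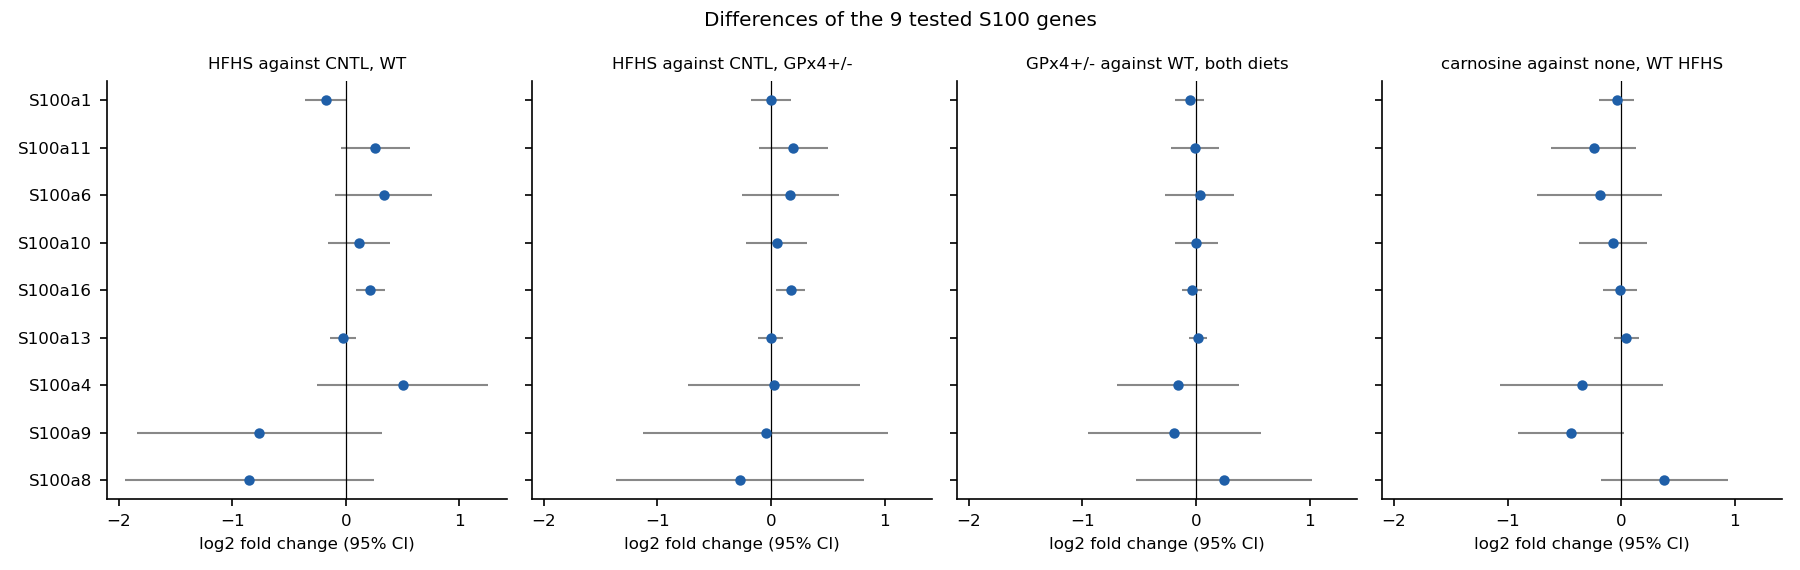
Log2 fold changes (horizontal axes) with 95% intervals from limma for the 9 tested S100 genes, ordered by level, for the diet in WT and in GPx4+/- mice, for genotype over both diets and for carnosine in WT HFHS mice. The intervals of S100a16 lie above 0 in both diet panels, at 0.22 and 0.17, and those of S100a8 and S100a9 are the widest in the diet and genotype panels.

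None of 6 other S100 genes measured (S100a3, S100a5, S100a7a, S100a14, S100g and S100z) reached the minimum level. S100a7a was the highest of them, at up to 2.19 in a WT HFHS mouse. Ager, which encodes RAGE, was between 0.040 and 0.359 scaled TPM in the 25 mice and was not tested. Tlr4 ranged from 2.27 to 6.94, with a log2 fold change on HFHS over both genotypes of -0.044 (adjusted p = 0.880 from limma). Of 25 tested genes of RAGE and Toll-like receptor 4 signalling, 0 were called over both genotypes (8.33% of all genes), 1 in WT mice (1.19% of all genes) and 1 in GPx4+/- mice (3.34%). These were Mapk3, the kinase ERK1, whose WT mean was 34.9 ± 0.889 (SD, n = 5) on CNTL and 39.5 ± 1.92 (SD, n = 5) on HFHS (adjusted p = 0.0459 from limma), and Cd36, a fatty acid receptor, whose GPx4+/- mean was 977.5 ± 74.6 (SD, n = 5) on CNTL and 1191 ± 134.5 (SD, n = 5) on HFHS (adjusted p = 0.0395). In the other genotype the means on CNTL and HFHS were 37.1 and 36.4 for Mapk3 (GPx4+/-) and 1054 and 1079 for Cd36 (WT). Of 4 tested genes for other RAGE ligands and 8 tested genes that RAGE signalling induces, 0 were called in any comparison, and 7 of the 8 induced genes had positive log2 fold changes on HFHS over both genotypes (median 0.071), beside 49.1% of all genes.

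Among 13 tested genes for S100 binding partners, 1 was called over both genotypes, a share near the 8.33% of all genes. Mdm2, the ligase that degrades p53, was higher on HFHS over both genotypes (log2 fold change 0.15, adjusted p = 0.0202 from limma) and in GPx4+/- mice (0.21, adjusted p = 0.0401), going from 24.1 ± 0.865 (SD, n = 5) to 27.9 ± 1.33 (SD, n = 5). Among 7 genes that clear reactive carbonyls and glycation products, the precursors of RAGE ligands, 2 were called higher on HFHS over both genotypes, where 561 of the 11983 genes were. Akr1b3, aldose reductase, rose by 0.21 on the log2 scale (adjusted p = 0.00266 from limma) and had means of 188.6, 177.6, 212.9 and 210.9 in WT CNTL, GPx4+/- CNTL, WT HFHS and GPx4+/- HFHS. Glo1, glyoxalase 1, rose by 0.10 (adjusted p = 0.0250), from means of 68.3 and 66.9 to 71.4 and 73.5. With genotype or carnosine 0 genes of these lists were called.

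Genes with the most similar pattern were found for each tested member by Pearson's r over the 25 mice, across all tested genes and as a description only. For S100a1 these were Myl3 (0.888), a ventricular myosin light chain, Coq10a (0.867) and Optn (0.866). For S100a16 they were Akap12 (0.834), Fndc1 (0.814) and Shisa5 (0.806). S100a11 was most like Fstl1 (0.938), Fxyd5 (0.927) and Mfap5 (0.917), and Fstl1 was also first for S100a10 (0.848). Txndc5 was first for S100a4 (0.892) and for S100a6 (0.873). S100a8 and S100a9 were most like each other (0.808), and S100a13 had no gene above 0.722, the value of Atp6v0e.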

How the data were processed

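The members and gene lists were chosen with earlier results of these data known. Left ventricular mRNA of 25 mice was sequenced from stranded libraries. The authors deposited TPM per transcript and library, and kallisto 0.43.1, sleuth 0.30.0 and GRCm38 are listed in the submitters' processing notes. The study's methods describe STAR alignment and DESeq2 on gene counts, which could not be run on TPM. Columns were matched to mice by library name, and groups came from the sample labels. Diet, dose and age came from the study's methods, which also state a fast and an injection before tissue was taken.

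Of 119215 transcripts, 116772 were matched to GENCODE M21. TPM were summed per gene, scaled by median ratios over 11879 genes (factors 0.865 to 1.16) and log2-transformed after a pseudocount of 0.5 was added, which understates the changes of low genes. Mitochondrial transcripts took 31.3% to 48.7% of TPM, which shifts all other genes. The 11983 genes that averaged 1 scaled TPM or more were tested with limma 3.58.1 in R 4.3.3, with Benjamini-Hochberg adjustment and a threshold of 0.05. The 20 mice without carnosine were fitted as 4 groups, and carnosine was fitted on the 10 WT HFHS mice. The test was checked on simulated data. Single genes were compared by two-sided permutation (scipy 1.17.1), exact for 5 against 5 mice.

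Named were all 10 members, the called genes of each list (at most 4), Ager and Tlr4, and 1 or more of the 3 genes most like each tested member. The neutrophil genes singled out, S100a7a, the relations to marker sums, the start groups of S100a16 and the sharing pseudogenes were chosen after the values were seen. Alternatives were pseudocounts of 0.1 and 1, no minimum or 5, TPM as deposited, quantile normalization, a replicate block, array weights, only the groups compared, protein-coding transcripts only and each mouse left out. Dropping 5 libraries together was chosen after seeing the data.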

Additional observations from a re-analysis of the deposited data

Results flagged for a closer look

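In 10 of 50 groups of 5 mice, 1 mouse stood apart from the other 4 by more than Dixon's 95% limit of 0.71, where chance gives about 1 in 20, or 2.5 groups. The groups are not independent, because members move together and a mouse can stand apart in several.

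WT HFHS replicate 4 was lowest in S100a1 (693.1 scaled TPM, next 807.7) and highest in S100a4 (26.5, next 11.9) and S100a10 (68.5, next 43.0). GPx4+/- CNTL replicate 5 was highest in S100a8 (6.47, next 1.15) and S100a9 (10.6, next 1.83). WT CNTL replicate 5 was lowest in S100a6 (29.2, next 48.2) and S100a16 (30.5, next 33.9). In WT HFHS + Carnosine, replicate 4 was lowest in S100a11 (43.3, next 63.1) and replicate 2 was highest in S100b (1.62, next 0.727). WT HFHS replicate 5 was lowest in S100a13 (23.8, next 26.1).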

How the results depend on the processing

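Of the S100 members, 1 was called between diets over both genotypes under each alternative except TPM as deposited, where 0 were called. The S100a16 log2 fold change stayed between 0.172 and 0.213 (adjusted p 0.00464 to 0.017) with each mouse left out in turn. The counts of called members stayed at 0 in the other comparisons. Replicate numbers do not pair the mice: the deviations of same-numbered mice had a median correlation of -0.0047 over 50 pairs and those of differently numbered mice 0.024 over 200 pairs. With the replicate number as a block 1 member was called over both genotypes and 0 elsewhere, and the number of genes called in WT mice between diets went from 142 to 68.

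Of 47 log2 fold changes of single members that were recomputed, 19 had another sign under 1 or more alternatives, and none of these was called. TPM as deposited gave -0.0734 for S100a4 and -0.0567 for S100a10 between diets in GPx4+/- mice, -0.0163 for S100a10 between genotypes and -0.0248 for S100a13 with carnosine. A pseudocount of 0.1 gave 0.0136 for S100a9 between diets in GPx4+/- mice. Between genotypes S100a11 was at 0.000712 after quantile normalization and 0.000399 with array weights, which gave 0.0102 for S100a10 and 0.00338 for S100a16 with carnosine. Without the 5 libraries with much other tissue, genotype over both diets gave 0.107 for S100a9, against -0.193 with all libraries, 0.0226 for S100a11 and 0.00529 for S100a16, and diet in WT mice gave -0.00305 for S100a10.

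With each mouse left out in turn, the diet difference over both genotypes ran from -0.0271 to 0.00176 for S100a13. In WT mice it ran from -0.0312 to 0.183 for S100a10 and from -0.0427 to 0.00414 for S100a13. In GPx4+/- mice it ran from -0.073 to 0.0604 for S100a1, -0.175 to 0.219 for S100a4, -0.454 to 0.207 for S100a8, -0.347 to 0.494 for S100a9, -0.00198 to 0.123 for S100a10 and -0.0294 to 0.0283 for S100a13, with the values of 0.207 and 0.494 reached without GPx4+/- CNTL replicate 5. Genotype over both diets ran from -0.275 to 0.00328 for S100a4, -0.045 to 0.123 for S100a6, -0.0336 to 0.0777 for S100a10 and -0.0694 to 0.0557 for S100a11, with the highest value of each reached without WT HFHS replicate 4. The difference between the diet effects ran from -0.08 to 0.00294 for S100a16. The carnosine difference ran from -0.137 to 0.0771 for S100a10 and from -0.049 to 0.0339 for S100a16, again highest without WT HFHS replicate 4. The cause was not tested.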
